A study of Mus musculus with 6 samples.

Results

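Caveolins and cavins are the structural proteins of caveolae, the small flask-shaped pits of the plasma membrane, and their 7 genes (Cav1, Cav2, Cav3, Cavin1, Cavin2, Cavin3 and Cavin4) were followed through cultured neonatal rat heart cells. The members were chosen by symbol from 33682 rows of a deposited expression table, and the only measured value in that choice was the mean level, which was to settle recurring symbols. Each symbol stood on 1 row, so it settled nothing. The set was drawn up with earlier results of this comparison known, so the calls given for its members describe them and are not independent evidence.

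The study sequenced 6 samples of cultured cells, 3 of cells kept in conditioned medium of ALOX5-/- bone marrow-derived mast cells (KO medium) and 3 of cells kept in conditioned medium of WT mast cells (WT medium). The mast cells of both groups had been treated with TNF-a, an inflammatory cytokine, and all 6 sequenced samples are labelled wild type, so the deletion was in the donors of the medium only. ALOX5 encodes 5-lipoxygenase, which starts leukotriene synthesis, and the comparison asks what the recipient cells express differently when the mast cells lack it. Cultures without mast cell medium, or with medium of mast cells without TNF-a, were not analysed here. By label the recipient cells are neonatal rat cardiomyocytes, but the series design speaks of fibroblasts, and the organism is labelled mouse although the table holds rat genes. Nothing in the labels says whether replicates came from separate cultures, so the p-values rest on a spread between libraries that may be technical only.

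Caveolae form when caveolin oligomers insert into the inner leaflet of the membrane and a coat of cavins assembles on them. They are abundant in fibroblasts, smooth muscle, endothelium and fat, and they flatten out to buffer the membrane when it is stretched. Caveolin-1 and cavin-1 are both needed for caveolae outside striated muscle. Caveolin-3 takes the place of caveolin-1 in striated muscle, and the other cavins adjust the coat from tissue to tissue.

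The cultures carried the markers of fibroblasts more than those of cardiomyocytes. The summed level of 11 fibroblast markers lay between 8049 and 8926 FPKM (fragments scaled to gene length and library size) in KO-medium libraries and between 8814 and 9365 FPKM in WT-medium libraries, led by the collagen gene Col1a1. The summed level of the 12 cardiomyocyte markers in the table lay between 105 and 132 FPKM with KO medium and between 31.9 and 56.4 FPKM with WT medium, led by Tnnt2, and the ventricular myosin light chain Myl2 was listed at 0 in all 6 libraries. The cardiomyocyte label is therefore not borne out by these levels. Depth ran from 14955850 to 15766187 reads in KO-medium libraries and from 13284088 to 14389010 reads in WT-medium libraries. WT-medium replicate 3 stood apart from the rest on the second principal component of the tested genes, which held 11.7% of the variance, and values without it are given where they matter.

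All 6 members that could be tested were higher in the cells given KO medium, from 1.44-fold for Cavin3 to 12.7-fold for Cavin2 in the ratio of mean FPKM. Testing took 12341 genes, those averaging 1 FPKM or more over the 6 libraries, on log2(FPKM + 1), with limma, a linear model fitted to every gene. Adjusted p-values are by Benjamini-Hochberg over all tested genes, with a threshold of 0.05, and all differences are KO medium minus WT medium. Because of the added 1 FPKM, these differences come out too small where a gene is scarce. Of all genes tested, 10.0% were called higher and 20.7% were called in either direction. The values of the 6 tested members did not overlap between the groups, with KO medium above WT medium, as held for 18.8% of all tested genes, and 37.6% did not overlap in either direction. Cav3 passed the filter on low values through its level in the KO-medium group, and Cavin4 did not pass it. In bulk samples, fewer cells of a type and less RNA per cell cannot be told apart.

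**Figure D1:**
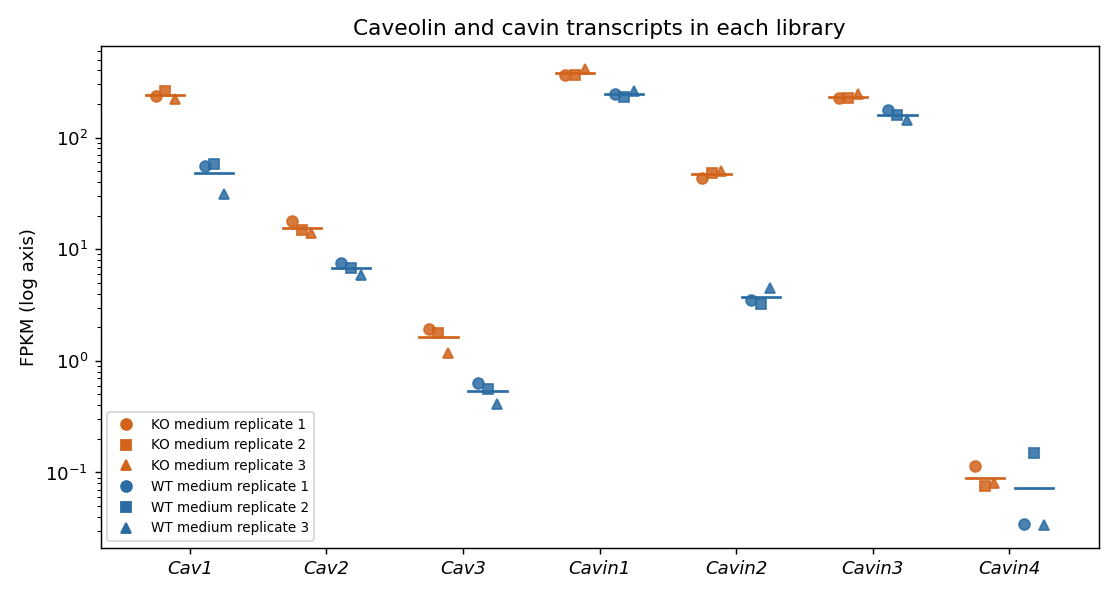
FPKM of the 7 caveolin and cavin genes in each library on a log axis, with KO medium left of WT medium, a marker shape for each replicate number and a bar at each group mean. Points of the groups are apart for every gene except Cavin4, and Cavin2 shows the widest gap, between means of 47.5 FPKM with KO medium and 3.74 FPKM with WT medium.

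Cav1, the caveolin that builds caveolae outside striated muscle, had the largest change of the 3 caveolins. It measured 236, 261 and 221 FPKM in the KO-medium libraries, against 56.2, 57.5 and 31.2 FPKM in the WT-medium libraries. The lowest KO-medium library was 3.84 times the highest WT-medium library, and WT-medium replicate 3 was the lowest of all. On the log2(FPKM + 1) scale, where SE is the standard error of the fit, KO medium exceeded WT medium by 2.33 ± 0.23 (SE) in log2, at an adjusted p of 0.000491 by limma. Without WT-medium replicate 3 the difference was 2.05 ± 0.10 (limma, adjusted p = 1.3e-05), with a smaller standard error. Cav1 (ENSRNOG00000056836) lies on the plus strand of chromosome 4 from 44597123 to 44630200 in the coordinates of the table. No rat build is named for these positions in the sources used here.

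Cav2, which joins caveolin-1 in mixed oligomers and depends on it to reach the cell surface, rose by less. Its levels were 17.9, 14.9 and 13.9 FPKM with KO medium, against 7.52, 6.79 and 5.93 FPKM with WT medium. All libraries of each group lay close together and the groups were apart. KO medium exceeded WT medium by 1.09 ± 0.13 (SE) in log2, at an adjusted p of 0.000432 by limma. Cav2 (ENSRNOG00000057713, chromosome 4, 44573264 to 44580638, plus strand) is the neighbour of Cav1, and 16.5 kb lie between them. The nearest tested genes beyond the pair, taken by position after the values had been seen, were Tes and Capza2. Tes, a focal adhesion protein gene 213 kb from Cav2, had 41.5 FPKM with KO medium and 25.8 FPKM with WT medium on average and was called higher at a log2 fold change of 0.65 (limma, adjusted p = 0.0135). Capza2, which encodes an actin capping subunit and lies 306 kb from Cav1, averaged 103 FPKM with KO medium and 104 FPKM with WT medium and did not pass (log2 fold change -0.02, limma, adjusted p = 0.917).

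Cav3 (ENSRNOG00000005798, chromosome 4, 144382945 to 144398917, plus strand), the caveolin of striated muscle, was near the lower limit of what was tested. It had 40, 39 and 24 reads in the KO-medium libraries, against 12, 10 and 8 reads in the WT-medium libraries, which is 1.95, 1.78 and 1.17 FPKM with KO medium, against 0.630, 0.562 and 0.409 FPKM with WT medium. The groups did not overlap, but each value rested on few reads. A library with 3 reads of Cav3 would stand at 0.137 to 0.169 FPKM, counting error alone considered. The log2 fold change of 0.77 (standard error 0.19) passed at limma's adjusted p of 0.0184, and the call was lost without KO-medium replicate 1, KO-medium replicate 2 or WT-medium replicate 2, where limma gave adjusted p of 0.0749, 0.0516 and 0.05004. Skeletal muscle markers had summed levels of 1.08 to 1.36 FPKM with KO medium and 0.951 to 2.21 FPKM with WT medium, over 5 genes in the table, led by Tnnt3 and with Myod1 listed at 0 throughout. Of 8 tested cardiomyocyte markers, 4 were called higher (Tnnt2, Actc1, Myh7 and Pln) and 0 lower, beside 10.0% of all tested genes called higher, and their part in the Cav3 result was not tested. Myh7, Pln, Myh6 and Actn2 were among the 8 only through their levels with KO medium, as Cav3 was, so the count is no support for a rise of the list. The nearest tested gene on the side of lower coordinates, Lmcd1, which encodes a LIM domain cofactor, lies 130 kb away and averaged 95.3 FPKM with KO medium and 8.32 FPKM with WT medium (3.34 in log2, limma, adjusted p = 1.2e-05). On the other side, Rad18, a DNA repair gene at 138 kb, was called lower at -0.53 (limma, adjusted p = 0.0128).

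Cavin1, the coat protein needed for caveolae in all tissues that have them, was the most abundant member in every library. It measured 362, 365 and 414 FPKM with KO medium, against 244, 230 and 263 FPKM with WT medium. The groups were apart by a narrow margin, the lowest KO-medium library being 1.38 times the highest WT-medium library. KO medium exceeded WT medium by 0.63 ± 0.11 (SE) in log2, at an adjusted p of 0.00286 by limma. The gene (ENSRNOG00000019778, chromosome 10, 88860733 to 88874528, minus strand) has Stat3 at 18.5 kb and Atp6v0a1 at 39.7 kb as its nearest tested neighbours. Neither neighbour passed the test, with log2 fold changes of -0.11 and -0.16 (limma, adjusted p = 0.475 and 0.405).

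Cavin2, also called serum deprivation response protein, binds phosphatidylserine and protein kinase C alpha and drives membrane curvature, and it changed most. Its 3 KO-medium libraries held 43.6, 48.6 and 50.4 FPKM, against 3.48, 3.22 and 4.51 FPKM in the WT-medium libraries. Every KO-medium library was at least 9.67 times the highest WT-medium library, and the reads behind the values numbered 7056 with KO medium and 499 with WT medium. KO medium exceeded WT medium by 3.36 ± 0.13 (SE) in log2, with a 95% interval from 3.08 to 3.65 and an adjusted p of 1.0e-06 by limma. Among the 12341 genes tested only 6 had a larger rise. Cavin2 (ENSRNOG00000025895) lies on the minus strand of chromosome 9 from 55243255 to 55256340. Its nearest tested neighbour on the side of higher coordinates, Tmeff2, at 128 kb, averaged 1.85 FPKM with KO medium and 0.451 FPKM with WT medium and was called higher at 0.97 (limma, adjusted p = 0.00346), having passed the filter on low values only through the KO-medium group. Nabp1, on the other side at 186 kb, was called lower at -0.47 (limma, adjusted p = 0.0218).

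Cavin3, which binds protein kinase C delta, had the smallest change of the tested members (ENSRNOG00000017914, chromosome 1, 170317113 to 170318935, minus strand). Its values were 225, 226 and 243 FPKM with KO medium, against 178, 160 and 142 FPKM with WT medium. The 3 KO-medium libraries lay within a narrower band than the WT-medium libraries, with a coefficient of variation of 4.50% with KO medium and 11.1% with WT medium. KO medium exceeded WT medium by 0.53 ± 0.11 (SE) in log2, at an adjusted p of 0.00812 by limma. Smpd1, its nearest tested neighbour on the side of higher coordinates and the gene of acid sphingomyelinase, was called lower at -0.41 (limma, adjusted p = 0.0149). Fam160a2, on the other side at 78.2 kb, did not pass (-0.02 in log2, limma, adjusted p = 0.924).

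Cavin4 (ENSRNOG00000008027, chromosome 5, 64412895 to 64423725, plus strand), the cavin of striated muscle, had 7, 5 and 5 reads in the KO-medium libraries, against 2, 8 and 2 reads in the WT-medium libraries. The groups overlapped. The total of 17 reads with KO medium had an exact Poisson interval of 9.90 to 27.2 reads, and that of 12 reads with WT medium one of 6.20 to 21.0 reads, which cover counting error only. The intervals overlap, but they rest on totals from groups of unequal depth and are not a test of a difference. Tested without the filter on low values, Cavin4 had a log2 fold change of 0.02 (limma, adjusted p = 0.817). At such levels the added 1 FPKM keeps this value small whatever the ratio, so it cannot show an absence of change. The log2 ratio of mean FPKM without the added 1 was 0.31.

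**Figure D2:**
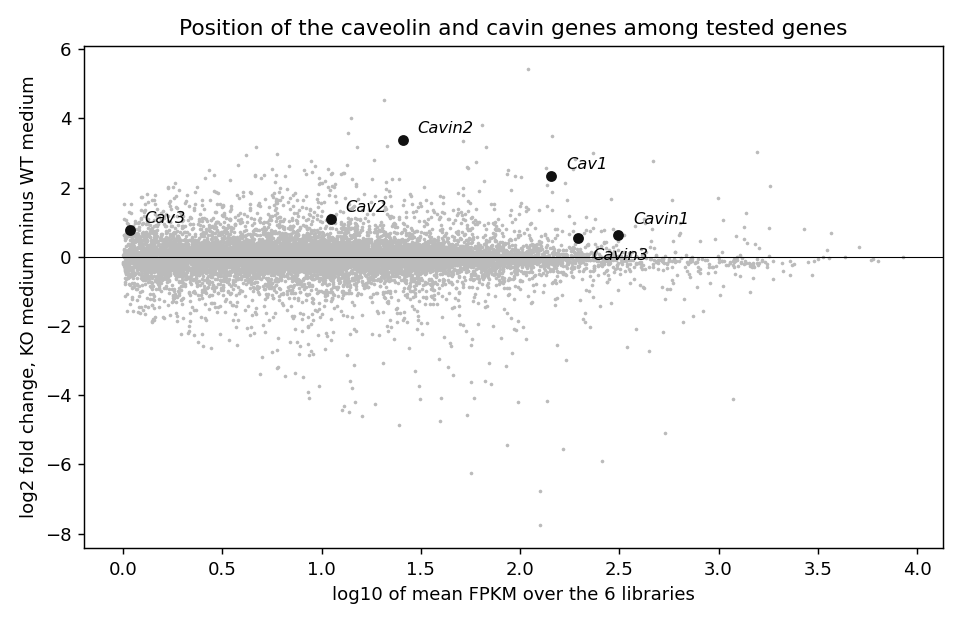
Log2 fold change, KO medium minus WT medium, against the log10 of mean FPKM over the 6 libraries for 12341 tested genes (grey), with the 6 tested caveolin and cavin genes in black. Cavin2 at 3.36 and Cav1 at 2.33 lie above most genes of similar abundance, and the other 4 lie between 0.53 and 1.09.

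Because the members rose by unequal factors, the order of their levels was not the same in the 2 groups. With KO medium it ran Cavin1, Cav1, Cavin3, Cavin2, Cav2, Cav3 and Cavin4, where Cav1 (221 to 261 FPKM) and Cavin3 (225 to 243 FPKM) overlapped. With WT medium it ran Cavin1, Cavin3, Cav1, Cav2, Cavin2, Cav3 and Cavin4, with no overlap between neighbours. Cav1 and Cavin3 thus stood level with KO medium and far apart with WT medium, and Cavin2 and Cav2 changed places.

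Ratios within a library, which do not depend on its depth, describe the same shift without a test. Cav1 over Cavin1 was 0.653, 0.715 and 0.534 with KO medium, against 0.231, 0.250 and 0.119 with WT medium. Cavin2 over Cavin1 was 0.121, 0.133 and 0.122 with KO medium, against 0.0143, 0.0140 and 0.0172 with WT medium, and Cavin2 made up 7.21% ± 0.348 of the summed cavin FPKM with KO medium and 0.912% ± 0.164 with WT medium (SD, n = 3 each). Neither ratio overlapped between the groups, and WT-medium replicate 3 was again low for Cav1. Cav2 over Cav1 moved the other way, at 0.0652 ± 0.00952 with KO medium and 0.147 ± 0.0377 with WT medium (SD, n = 3 each). Cavin3 over Cavin1 overlapped between the groups, at 0.609 ± 0.0185 with KO medium and 0.656 ± 0.10 with WT medium (SD, n = 3 each). Summed over each family, caveolin transcripts were 257 ± 20.8 FPKM with KO medium and 55.6 ± 15.6 FPKM with WT medium, and cavin transcripts were 659 ± 42.2 FPKM with KO medium and 410 ± 15.8 FPKM with WT medium (SD, n = 3 each).

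**Figure D3:**
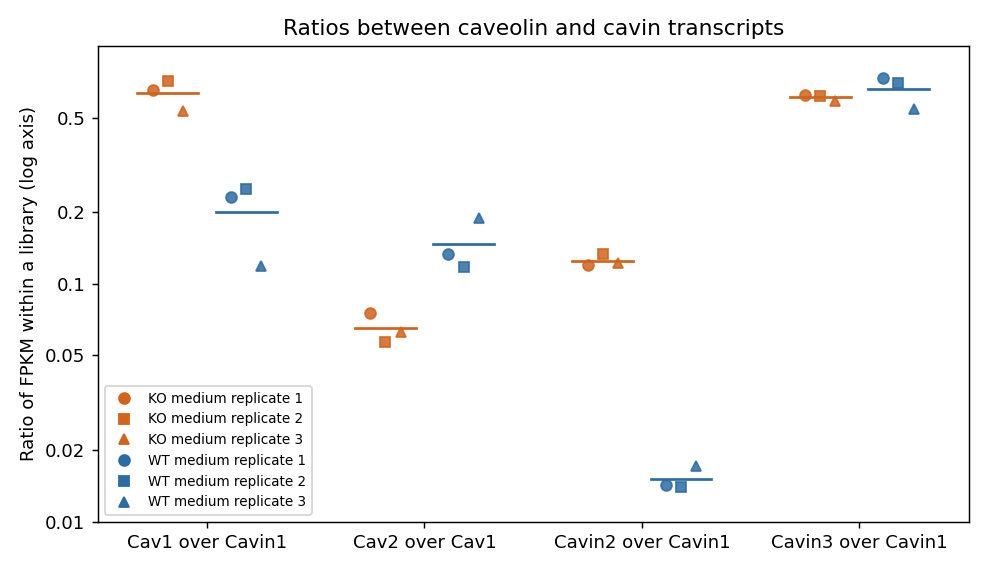
Ratios of FPKM between caveolin and cavin genes within each library on a log axis, with KO medium left of WT medium, a marker shape for each replicate number and a bar at each group mean. Cav1 over Cavin1 and Cavin2 over Cavin1 are higher in every KO-medium library, Cav2 over Cav1 is lower, and Cavin3 over Cavin1 overlaps.

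Promoter sequence was read for Cavin2, which moved most, and for Cav1 and Cav2, which are neighbours that were both called higher. The sequences are those of the mouse genes, from RefSeq on build GRCm38.p6, and the rat promoters of the sequenced cells were not used here. Of 7 members 6 were matched, with 8 start sites, Cav1 and Cavin1 having 2 each, those of Cavin1 overlapping almost wholly. Shown are the 250 bases before the start on the strand of the gene, for Cav1 the first of its 2 sites, with matches to the searched motifs in capitals.
Cavin2, chr1:51288876-51289125, plus strand: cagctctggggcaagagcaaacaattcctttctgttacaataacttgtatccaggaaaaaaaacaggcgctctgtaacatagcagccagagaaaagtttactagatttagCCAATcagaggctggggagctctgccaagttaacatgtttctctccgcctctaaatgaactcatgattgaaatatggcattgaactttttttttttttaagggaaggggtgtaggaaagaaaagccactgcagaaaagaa
Cav1, chr6:17306085-17306334, plus strand: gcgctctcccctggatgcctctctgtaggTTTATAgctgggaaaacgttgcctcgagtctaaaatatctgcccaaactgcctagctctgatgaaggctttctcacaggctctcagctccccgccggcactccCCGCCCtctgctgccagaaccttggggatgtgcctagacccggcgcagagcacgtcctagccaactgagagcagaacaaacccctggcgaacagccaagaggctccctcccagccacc
Cav2, chr6:17280935-17281184, plus strand: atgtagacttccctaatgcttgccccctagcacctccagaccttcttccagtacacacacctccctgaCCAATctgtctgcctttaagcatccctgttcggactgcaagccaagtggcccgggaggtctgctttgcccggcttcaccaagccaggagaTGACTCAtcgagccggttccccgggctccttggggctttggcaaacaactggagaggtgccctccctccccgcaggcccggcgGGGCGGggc

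The motifs searched on both strands were the CArG box bound by SRF, the TEAD word GGAATG, the AP-1 word TGANTCA, the GC box GGGCGG, the CCAAT box CCAAT and the TATA word TATAAA. A CArG box can hold the TATA word or the CCAAT box, and no other motif holds another. Cavin2 held a CCAAT box, which 33.8% of all 32851 mouse promoter windows of this length hold on either strand. Cav1 held a GC box and a TATA word on the opposite strand, found in 32.7% and 12.4% of windows. Cav2 held a CCAAT box, an AP-1 word and a GC box, the AP-1 word being present in 6.75% of windows. The CArG box, present in 1.47% of windows, was found in 0 of the 8 windows of the members, and the TEAD word, present in 12.6%, was found in the windows of Cavin1 alone. GC content was 40.4% for Cavin2, against 59.6% for the printed Cav1 window and 62.0% for Cav2. These matches describe letters in 1 window of another species and no relation to the changes in level was tested.

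Genes that work with caveolins and cavins were read from 5 companion lists. Of 10 tested genes of caveola assembly and shape, 3 were higher, 0 lower and 7 did not pass, with a median log2 fold change of 0.09 beside -0.00082 for all tested genes. Flna, the actin crosslinker filamin A that ties caveolae to stress fibres, measured 358, 450 and 409 FPKM with KO medium, against 251, 256 and 279 FPKM with WT medium, which is 0.62 ± 0.11 (SE) in log2 (limma, adjusted p = 0.00469). Ehd2, the ATPase that holds the neck of caveolae, measured 124, 127 and 148 FPKM with KO medium, against 98.4, 87.1 and 96.8 FPKM with WT medium, which is 0.49 in log2 (limma, adjusted p = 0.0102). Both genes were higher in every KO-medium library than in any WT-medium library. Ehd3, a relative of Ehd2, passed narrowly at 0.37 (limma, adjusted p = 0.0483), and leaving out KO-medium replicate 2 or 3 or WT-medium replicate 1 or 2 ended that call, at adjusted p of 0.09999, 0.135, 0.149 and 0.172. It was also lost with no filter on low values (0.0762), median-of-ratios scaling (0.0508), TPM scaling (0.0581) and no trend or robust prior (0.0607). Ror1, a receptor that binds cavin-1 and caveolin-1 in human tumour cells, had 4.38 ± 0.63 FPKM with KO medium and 2.91 ± 0.49 FPKM with WT medium (SD, n = 3 each), and its log2 fold change of 0.46 missed the threshold (limma, adjusted p = 0.0609) but passed without WT-medium replicate 3 (limma, adjusted p = 0.0387), with quantile normalization (0.0425) and with limma-voom (0.0344). Pacsin2, which bends the membrane of caveolae, was named after its values were seen and averaged 16.8 FPKM with KO medium and 15.5 FPKM with WT medium (log2 fold change 0.12, limma, adjusted p = 0.439).

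Both flotillin genes, which build membrane microdomains apart from caveolae, were higher. Among all tested genes, 10.0% were called higher and 20.7% in either direction. Flot1 measured 30.9, 25.7 and 30.2 FPKM with KO medium, against 16.4, 17.4 and 17.8 FPKM with WT medium, which is 0.71 ± 0.10 (SE) in log2 (limma, adjusted p = 0.00132). Flot2 measured 25.6, 25.2 and 28.6 FPKM with KO medium, against 21.1, 20.4 and 20.9 FPKM with WT medium, which is 0.33 in log2 (limma, adjusted p = 0.0332). The Flot2 call was lost without any 1 of 5 libraries, at adjusted p of 0.0554 without KO-medium replicate 1, 0.0883 without KO-medium replicate 3, and 0.109, 0.117 and 0.0591 without WT-medium replicates 1, 2 and 3 in limma. It was also lost with no trend or robust prior (adjusted p = 0.0505).

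Among 7 kinases that phosphorylate caveolin-1 or bind cavins, 2 were lower, 0 higher and 5 did not pass, with a median of 0.05. Fyn, a Src family kinase, averaged 13.4 ± 0.66 FPKM with KO medium and 18.1 ± 0.75 FPKM with WT medium (SD, n = 3 each), which is -0.41 in log2 (limma, adjusted p = 0.0142, and 0.0813 without WT-medium replicate 1). Abl2, a kinase of the Abl family, averaged 3.01 ± 0.38 FPKM with KO medium and 4.90 ± 0.48 FPKM with WT medium (SD, n = 3 each), which is -0.56 in log2 (limma, adjusted p = 0.0174, but 0.0617 without KO-medium replicate 1, 0.0661 without WT-medium replicate 1 and 0.05004 with TPM scaling). Src itself had a log2 fold change of 0.20 and Abl1 of -0.55, neither past the threshold, and WT-medium replicate 1 at 4.4 FPKM stood far above the other Abl1 values of 0.728 to 1.19 FPKM. The partners bound by cavins, Prkca for cavin-2 and Prkcd for cavin-3, differed by 0.14 and 0.05 in log2 and did not pass (limma, adjusted p = 0.456 and 0.827) and were named after their values were seen.

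Receptors and channels that have been described in caveolae did not share a direction. Of 13 tested, 1 was higher, 2 lower and 10 did not pass, with a median of 0.13. The PDGF receptors moved apart: Pdgfra measured 39.5, 40.6 and 32.6 FPKM with KO medium, against 85.5, 76.3 and 80.1 FPKM with WT medium (log2 fold change -1.09, limma, adjusted p = 0.000173). Pdgfrb measured 76.4, 74.7 and 85.1 FPKM with KO medium, against 32.6, 34.2 and 60.0 FPKM with WT medium (log2 fold change 0.94, limma, adjusted p = 0.0250). The groups were apart for both, but the Pdgfrb call was lost without any 1 library other than WT-medium replicate 3, at adjusted p of 0.0800, 0.0670 and 0.0893 without KO-medium replicates 1, 2 and 3 and 0.0645 and 0.0801 without WT-medium replicates 1 and 2 in limma. Kcnj8, a subunit of ATP-sensitive potassium channels, averaged 3.39 ± 0.90 FPKM with KO medium and 14.8 ± 3.99 FPKM with WT medium (SD, n = 3 each), which is -1.83 in log2 (limma, adjusted p = 0.000768). Trpc1, a cation channel that binds caveolin-1, differed by 0.39 in log2 and did not pass (limma, adjusted p = 0.129), but it passed with no trend or robust prior (adjusted p = 0.0458) and with limma-voom on recovered reads (adjusted p = 0.0411).

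In the clathrin coat, the other main coat of endocytic pits, 2 of 17 tested genes were higher, 2 lower and 13 did not pass, with a median of 0.01. The light chains divided, with Cltb at 95.8 ± 11.1 FPKM with KO medium and 54.5 ± 4.36 FPKM with WT medium and Clta, the most abundant gene of the list, at 218 ± 21.1 FPKM with KO medium and 343 ± 21.4 FPKM with WT medium (SD, n = 3 each). Their log2 fold changes were 0.80 and -0.65 (limma, adjusted p = 0.00118 and 0.00287). The adaptor genes Eps15 and Ap2a2 also divided, at 0.75 and -0.49 (limma, adjusted p = 0.00152 and 0.00417). The shares called in the lists of caveola assembly (30.0%), kinases (28.6%), receptors (23.1%) and clathrin coat (23.5%) stood beside 20.7% of all tested genes, and no test of a list was made.

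**Figure D4:**
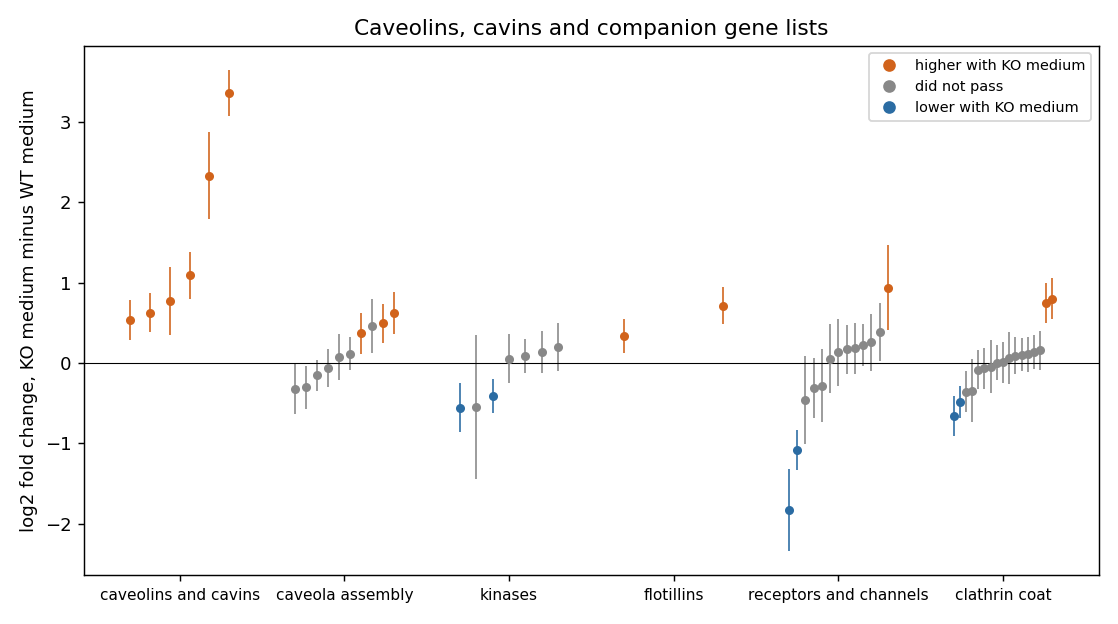
Log2 fold change, KO medium minus WT medium, with 95% limma intervals for the tested caveolin and cavin genes and for 5 companion lists, each point a gene, coloured by its call at an adjusted p of 0.05. The caveolin and cavin genes reach 3.36, whereas the highest value in the companion lists is 0.94, that of Pdgfrb.

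For each member the 3 tested genes with the most similar profile were sought, by the root mean square difference of log2(FPKM + 1) over the 6 libraries after subtracting the mean of each gene. The measure mostly follows the size of the difference between the groups on that scale, where scarce genes can match others of unlike ratio. In the ratio of mean FPKM, Cav3 rose 3.06-fold and its nearest match Tmem47 rose 1.77-fold. Nearest to Cavin2 were the integrin gene Itga8, the growth factor gene Tgfb3 and the small heat shock protein gene Cryab, at 0.18, 0.18 and 0.22 log2 units. Nearest to Cav1 were the immediate early factor gene Egr1, Asb12 and the oxidised LDL receptor gene Olr1, at 0.21, 0.24 and 0.27. The unconventional myosin gene Myo1c was the closest of all, at 0.04 from Cavin1, and measured 152, 160 and 181 FPKM with KO medium, against 101, 95.2 and 114 FPKM with WT medium. Ssbp2 and Pxylp1 followed at 0.05 and 0.06. For Cav2 they were the transcription factor gene Mef2c, Hacd1 and Glipr1, at 0.10, 0.10 and 0.11. Mef2c averaged 3.15 FPKM with KO medium and 0.779 FPKM with WT medium, so it passed the filter on low values only through the KO-medium group. For Cav3 the nearest genes were Tmem47, Prkab2, which encodes an AMP-activated kinase subunit, and the actin-binding caldesmon gene Cald1, at 0.07, 0.08 and 0.08. For Cavin3 they were Msantd3, the ephrin gene Efna4 and Tmem205, at 0.05, 0.06 and 0.06. Among the members themselves, Cavin1 and Cavin3 were the closest pair at 0.14, and Cavin2 and Cavin3 the farthest at 1.43.

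Cell types known to be rich in caveolae were read from their markers beside these changes. Of 11 fibroblast markers, all tested, 2 were called higher (Col3a1 and Tcf21), 3 lower (Dcn, Lum and Pdgfra) and 6 did not pass. Among all tested genes, 10.0% were called higher and 10.6% lower. Dcn, the matrix proteoglycan decorin, averaged 134 FPKM with KO medium and 2219 FPKM with WT medium (-4.10 in log2, limma, adjusted p = 0.00211). Lum, the related proteoglycan lumican, averaged 35.7 FPKM with KO medium and 150 FPKM with WT medium (-2.10 in log2, limma, adjusted p = 0.0227). In the other direction, Col3a1 averaged 2293 FPKM with KO medium and 1285 FPKM with WT medium (0.84 in log2, limma, adjusted p = 0.0028). Tcf21 averaged 25.9 FPKM with KO medium and 16.0 FPKM with WT medium (0.69 in log2, limma, adjusted p = 0.0252). Col1a1, the most abundant of the list, did not pass (0.19 in log2, limma, adjusted p = 0.456). The part of the fibroblast markers in the caveolin and cavin results was not tested. Of 11 tested smooth muscle and pericyte markers, 9 were called higher and 2 lower, the 2 being Kcnj8 and Abcc9. This stood beside 10.0% of all tested genes called higher and 10.6% called lower. Rgs5, also on the list, had at most 2 reads in any library and was not tested. The summed level of the list was 4976 to 6849 FPKM with KO medium and 1062 to 1162 FPKM with WT medium, led by Tagln and Acta2. Notch3, 1 of the 9, passed the filter on low values only through the KO-medium group. Their part in the caveolin and cavin results was not tested. Endothelial markers summed to between 4.44 and 5.19 FPKM with KO medium and between 5.35 and 7.34 FPKM with WT medium over 9 genes, most of it from Tek, with Emcn and Cldn5 listed at 0 in every library. Adipocyte markers summed to between 0.862 and 1.05 FPKM with KO medium and between 0.230 and 0.602 FPKM with WT medium over 5 genes, led by Fabp4. Mast cell markers summed to between 17.0 and 25.1 FPKM with KO medium and between 38.1 and 53.6 FPKM with WT medium, nearly all from Cpa3, with Fcer1a and Ms4a2 listed at 0. Leukocyte markers summed to between 15.2 and 19.2 FPKM with KO medium and between 23.0 and 24.1 FPKM with WT medium, led by Cd14.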

How the data were processed

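Per the labels' protocols, RNA was extracted with TRIzol and a NEBNext Ultra kit made the libraries. The submitters' processing notes name mm10, a mouse build, and the tools CASAVA 1.8, fastp, HISAT2 2.0.5, featureCounts 1.5.0-p3 and DESeq2 1.20.0, none with its role. Rat Ensembl identifiers nevertheless stand on 32883 of 33682 rows, mouse ones on 0 and other identifiers on 799. The authors deposited FPKM values, scaled to gene length and library size, with 1 column per sample, and gene length and position are other columns, per the file headers. Gene symbols are those of the table. No row overlapped a member's gene in the table. The sources used here do not give the strand setting of the counting.

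FPKM times gene length came out, to within 0.05 reads, as a whole multiple of 1 step in each column (100% of non-zero values), and the reads and depths in the text come from these steps. On log2(FPKM + 1), limma 3.58.1 (R 4.3.3, statmod 1.5.0) tested two-sided every gene whose mean reached 1 FPKM, using a robust prior with trend. The fit was also run on simulated reads with the same setting of spread for all genes. That is simpler than the data and does not vouch for the calls given here. The members and lists were chosen with earlier results of these data known. Besides the 7 members, the text names up to 4 genes of each companion list with the smallest p, the most abundant gene of each companion and marker list, and the 3 genes most similar to each member (clone and locus names left out). Neighbouring genes, 3 further members of the companion lists and further marker genes were named after their values were seen. Alternatives were other pseudocounts, filters, scalings and variance models, a replicate block, leaving out each library, and limma-voom on the recovered reads, the last chosen after seeing the data.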

Additional observations from a re-analysis of the deposited data

How the results depend on the processing

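Cav1, Cav2, Cavin1, Cavin2 and Cavin3 kept their direction and their call in all 16 alternatives run, with log2 fold changes from 2.05 to 2.48 for Cav1 and from 3.29 to 3.67 for Cavin2. Cav3 kept its direction in the 15 alternatives that tested it, from 0.68 to 1.56 (the highest with limma-voom on recovered reads), but 3 of these, each leaving out 1 library, ended its call. The number of members called higher was 5 or 6 and the number called lower 0 in every alternative. Leaving out each library in turn gave between 791 and 1226 genes called higher and between 862 and 1325 called lower over all genes tested, with the lowest counts without WT-medium replicate 1; the cause was not tested. In the companion lists, 2 to 4 caveola assembly genes, 1 or 2 flotillins and 0 to 2 receptors and channels were called higher. Called lower were 0 or 1 caveola assembly genes and 0 to 2 kinases. For receptors and channels, and for the clathrin coat, the number called lower was 2 or 3. With a replicate block, 1277 genes were called higher and 1375 lower, and 6 members higher. Whether equal replicate numbers pair the samples is not stated in the labels. The deviations of same-numbered samples correlated at -0.10, 0.10 and 0.17. With 3 libraries per group such correlations constrain each other, so they cannot decide whether samples were paired. The block changed no call of a member. The planned tests with edgeR and DESeq2 were not run, and limma-voom stands for a test of the recovered reads. No member symbol recurred, so no other row could be tried. Depth limits Cav3 and Cavin4, the members with the fewest reads.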
